A study of Mus musculus with 36 samples.

Results

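The genes described here encode the enzymes that write, copy and remove DNA methylation, and the question is where CTCF and MBD3 peaks lay around them in mouse embryonic stem cells on days 0, 2, 4 and 6. They are 9 of the 21887 protein-coding genes of the annotation: Dnmt1, Uhrf1, Dnmt3a, Dnmt3b, Dnmt3l, Tet1, Tet2, Tet3 and Tdg. The peaks described are those that lay inside a gene or within 20 kb of its outer ends in mm10, and 163 of the 182783 peaks of the 8 lists met that rule, 125 of CTCF and 38 of MBD3. Chromatin immunoprecipitation followed by sequencing was done with antibodies to MBD3 and to CTCF, and input chromatin was sequenced beside them, in 36 samples that form 12 groups of 3. The labels name the cells only as mouse embryonic stem cells, the deposited lists are named as wild type, and no step between day 0 and day 6 is described. All groups share a medium with leukaemia inhibitory factor and, in the usual culture, irradiated mouse embryonic fibroblasts as feeders, and whether feeder chromatin was removed is not given. Peak lists hold no expression, so the cell type could not be checked against markers. The protocol also names antibodies to TET1 and TET2, and no data of these were analysed here.

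CTCF is a DNA-binding zinc finger factor known from insulators and loop anchors, and its binding to some sites is blocked when they are methylated. MBD3 belongs to NuRD, a complex that remodels nucleosomes and deacetylates histones, and unlike the related MBD2 it binds methylated CpG poorly in mammals. DNMT1 copies methylation to the new strand after replication and is brought there by UHRF1. DNMT3A and DNMT3B methylate DNA afresh, and DNMT3L, which has no activity of its own, stimulates them. TET enzymes oxidise methylcytosine, and TDG excises the later oxidation products so that base excision repair can restore an unmodified cytosine. Embryonic stem cells are known for high levels of Tet1, Tet2 and Dnmt3b.

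Every one of the 9 genes had a CTCF peak on every day, whereas MBD3 peaks were fewer than CTCF peaks, with 1 on day 2. CTCF had 48, 20, 27 and 30 peaks in the 9 windows on days 0, 2, 4 and 6, and MBD3 had 13, 1, 14 and 10. The whole MBD3 list was also shortest on day 2, with 1991 peaks against 9006 to 10875 on the other days, and with each MBD3 list cut to that length the 9 windows held 4, 1, 3 and 2 MBD3 peaks. A CTCF peak was present at 9 of 9 genes on each day, where 79.4%, 67.8%, 74.1% and 74.9% of all protein-coding genes had one in a window built the same way. All 9 had CTCF on all 4 days, as did 66.3% of all genes. An MBD3 peak was present at 6, 1, 8 and 7 of the 9 genes, against 42.2%, 10.6%, 39.2% and 43.5% of all genes. The same 6, 1, 8 and 7 genes had both proteins, against 41.7%, 9.57%, 38.2% and 42.9% of all genes. The windows are 60.2 to 152.9 kb long, so long genes have more room for a peak. Over the windows of the 7921 genes within that range of lengths the shares were 87.5%, 75.7%, 82.0% and 82.9% for CTCF and 45.6%, 10.9%, 42.1% and 47.0% for MBD3. Per 100 kb of window the 9 genes had 5.42, 2.26, 3.05 and 3.39 CTCF peaks, against 3.26, 1.83, 2.38 and 2.47 over all genes. For MBD3 the density was 1.47, 0.11, 1.58 and 1.13 per 100 kb at the 9 genes and 0.79, 0.14, 0.67 and 0.78 over all genes. Over the genes within that range of lengths it was 3.59, 2.01, 2.59 and 2.71 for CTCF and 0.83, 0.14, 0.70 and 0.83 for MBD3. Dnmt3a alone held 13 of the 38 MBD3 peaks. The peaks were called once on 3 pooled replicates, so there is no spread between replicates and days are compared without a p-value.

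**Figure D1:**
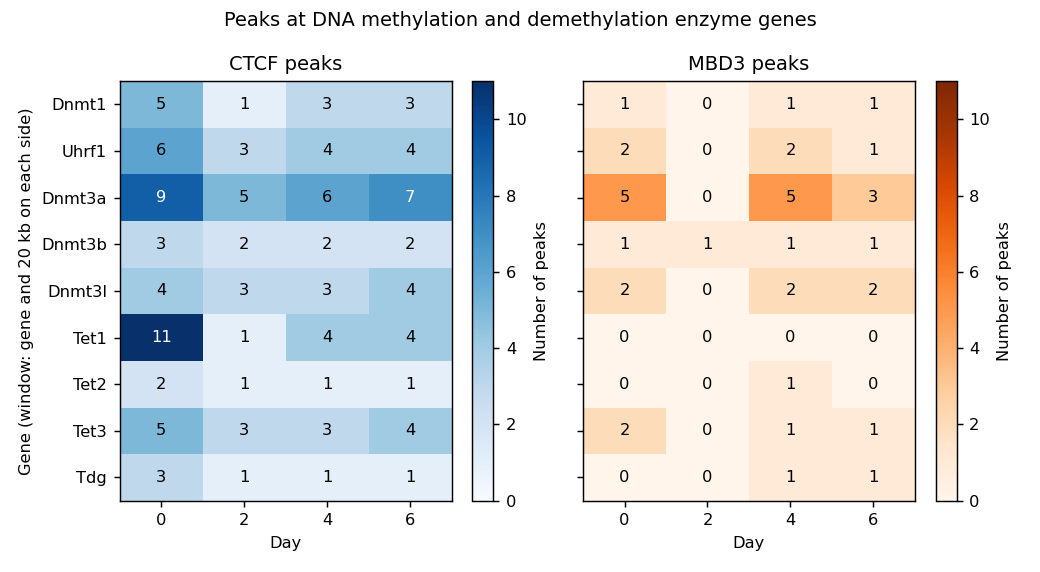
Number of CTCF peaks (left) and MBD3 peaks (right) in the window of each enzyme gene (rows) on each day (columns), where a window is the gene and 20 kb on each side. Tet1 had the most CTCF peaks on day 0, with 11, and 0 MBD3 peaks on every day, and Dnmt3b alone had an MBD3 peak on day 2.

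**Figure D2:**
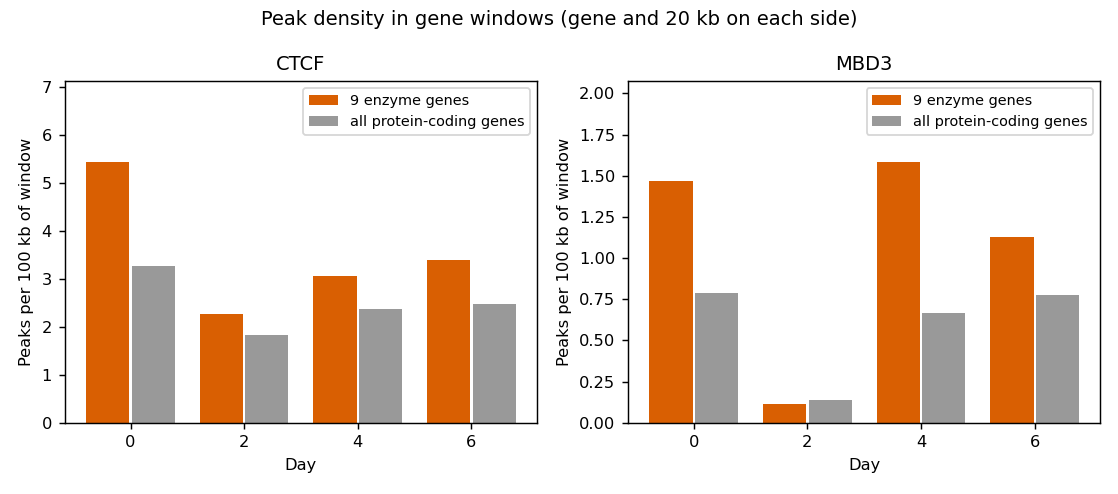
Peaks per 100 kb of window (vertical axis, from 0) in the CTCF lists (left) and MBD3 lists (right) by day, for the 9 enzyme genes (orange bars) and for all protein-coding genes (grey bars). The 9 genes lay above all genes in each CTCF list and in the MBD3 lists of days 0, 4 and 6, and below them for MBD3 on day 2, where they had 1 peak.

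The CTCF peaks found on day 0 alone were mostly weak ones. When every CTCF list was cut to its best 28137 peaks by -log10 q, the length of the shortest, the 9 windows held 23, 20, 21 and 21 CTCF peaks. Of the 49 CTCF sites (peaks of several days that overlap), 20 were found on all 4 days and 20 on day 0 alone. Over the genome 47.3% of merged CTCF sites were found on all 4 days and 20.6% on day 0 alone. The day 0 peaks of the 20 sites of day 0 alone had folds of 1.70 to 6.19 with a median of 2.73, and 19 of them lay below the 30th percentile of fold in their list. That list was the longest, with 47414 peaks. Folds of all sites of day 0 alone in the genome are not given here, so the low folds are not read as particular to these genes. The 20 sites of all 4 days had a median fold of 12.5 on day 0, with a range of 3.97 to 21.5. Fold is the authors' enrichment at the summit over the expected background, and folds of different days come from separate lists, so they are set side by side without being a measured change. The genome-wide background level, the only measure of depth used here, was 2.87, 2.67, 1.83 and 1.87 fragments in the CTCF lists and 1.51, 2.18, 1.93 and 1.41 in the MBD3 lists. Its part in the differences between days was not tested. At that level the weakest called peaks had 8 to 10 fragments, and a place without a peak had too few for a call rather than none.

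Most CTCF peaks at the outer ends of these genes were weak and found on day 0 alone. Folds of the end peaks of all genes are not given here, so this is not read as particular to the 9 genes. Within 1 kb of an outer end of the gene, CTCF had a peak at 6 of 9 genes on day 0 (34.3% of all genes), and at 1 of 9 on days 2, 4 and 6 (15.6%, 20.3% and 21.0% of all genes). The 6 genes were Uhrf1, Dnmt3b, Tet1, Tet2, Tet3 and Tdg, with folds of 1.70, 2.27, 2.76, 2.38, 3.97 and 2.51 on day 0. At Tet1 this was the 3′ end of the gene, and at the other genes the 5′ end. The fragments over these 6 summits numbered 58, 49, 32, 41, 79 and 41, against a median of 58 over the whole day 0 list. The Uhrf1 peak had its 58 fragments on a local background of 33.8, which is 11.8 times the level of the list. The Dnmt3b peak had its 49 fragments on a background of 21.0. Tet3 alone kept a CTCF peak there on all days, with folds of 3.97, 2.24, 2.67 and 2.04 on days 0, 2, 4 and 6, all but the first below the 1st percentile of their list. A further day 6 peak of fold 2.62 lay 1.2 kb inside the gene. MBD3 had a peak within 1 kb of an end at 0, 0, 2 and 0 of the 9 genes (10.0%, 2.13%, 9.86% and 7.96% of all genes), and the 2 genes of day 4 were Uhrf1 (fold 2.01) and Tet2 (2.29).

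RefSeq gives 16 promoter windows for the 9 genes, each from 250 bases before to 50 after a start, and a CTCF peak of day 0 overlapped 5 of them, each of a different gene. Among all genes with such a window 21.0% had a CTCF peak over one on day 0, and 6.85%, 9.05% and 9.38% on days 2, 4 and 6, when 0 of the 9 genes did. MBD3 peaks overlapped 0 of the 16 windows on any day, where 5.29%, 0.966%, 5.41% and 3.58% of all genes had one. The 5 windows are shown because they are the promoters at which CTCF was called. They are from RefSeq (GRCm38.p6, the assembly of mm10), 5′ to 3′ on the strand of the gene, with the bases under the day 0 CTCF peak in capitals.

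Uhrf1 (chr17:56304063-56304362, plus strand): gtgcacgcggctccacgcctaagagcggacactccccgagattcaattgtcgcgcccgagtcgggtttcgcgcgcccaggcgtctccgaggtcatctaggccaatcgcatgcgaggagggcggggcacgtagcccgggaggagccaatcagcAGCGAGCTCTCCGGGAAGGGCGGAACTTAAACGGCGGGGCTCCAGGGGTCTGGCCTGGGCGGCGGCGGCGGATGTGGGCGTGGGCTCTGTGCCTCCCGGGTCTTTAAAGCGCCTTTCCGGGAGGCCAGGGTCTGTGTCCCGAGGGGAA
Dnmt3a (chr12:3806730-3807029, plus strand): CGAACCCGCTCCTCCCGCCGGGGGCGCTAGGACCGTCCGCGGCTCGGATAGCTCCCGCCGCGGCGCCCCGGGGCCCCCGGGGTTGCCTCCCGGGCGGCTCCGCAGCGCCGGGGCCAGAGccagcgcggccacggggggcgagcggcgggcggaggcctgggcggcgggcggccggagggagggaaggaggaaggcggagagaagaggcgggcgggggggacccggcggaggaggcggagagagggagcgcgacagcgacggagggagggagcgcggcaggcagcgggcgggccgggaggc
Dnmt3b (chr2:153649199-153649498, plus strand): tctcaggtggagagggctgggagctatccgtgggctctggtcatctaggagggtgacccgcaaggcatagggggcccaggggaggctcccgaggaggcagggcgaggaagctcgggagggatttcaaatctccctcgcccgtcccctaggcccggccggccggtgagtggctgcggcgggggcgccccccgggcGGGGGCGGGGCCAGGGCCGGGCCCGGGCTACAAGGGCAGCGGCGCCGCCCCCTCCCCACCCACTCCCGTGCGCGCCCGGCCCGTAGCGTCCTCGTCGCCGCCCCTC
Tet3 (chr6:83441629-83441928, minus strand): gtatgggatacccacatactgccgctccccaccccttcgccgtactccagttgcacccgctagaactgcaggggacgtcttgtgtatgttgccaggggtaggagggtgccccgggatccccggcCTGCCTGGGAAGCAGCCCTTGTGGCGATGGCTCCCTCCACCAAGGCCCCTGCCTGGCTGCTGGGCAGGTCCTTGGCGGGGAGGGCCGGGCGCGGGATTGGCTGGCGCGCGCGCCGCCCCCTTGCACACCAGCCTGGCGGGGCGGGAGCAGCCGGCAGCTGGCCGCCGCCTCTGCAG
Tdg (chr10:82629588-82629887, plus strand): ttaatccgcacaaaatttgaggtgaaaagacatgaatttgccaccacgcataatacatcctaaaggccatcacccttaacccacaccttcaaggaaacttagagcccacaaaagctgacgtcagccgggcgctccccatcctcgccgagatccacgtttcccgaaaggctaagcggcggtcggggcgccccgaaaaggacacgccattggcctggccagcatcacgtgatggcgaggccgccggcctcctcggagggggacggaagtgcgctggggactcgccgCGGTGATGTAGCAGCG

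The capitals cover 148 of 300 bases at Uhrf1, 119 at Dnmt3a, 106 at Dnmt3b, 176 at Tet3 and 16 at Tdg. At Dnmt3a they are the edge of a strong peak whose summit lay 559 bp before the start. At the other genes the summit lay 32 bp before the start (Uhrf1), 331 bp after it (Dnmt3b), 35 bp after it (Tet3) and 118 bp after it (Tdg). The windows were rich in CpG, with 33, 46, 30, 22 and 26 CpG in the order shown, against a median of 13 over all 21263 windows of protein-coding genes. A core of the CTCF motif was searched on both strands and found in 0 of the 16 windows of the 9 genes and in 2.34% of all windows, which says only that its letters are not in these windows. The Tet2 window, with 57 CpG the richest of the 16, lay 9 bp from the nearest peak, an MBD3 peak of day 4. The Tet1 window had 17 CpG, and its nearest peak was a CTCF peak of day 0 at a distance of 2097 bp.

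**Figure D3:**
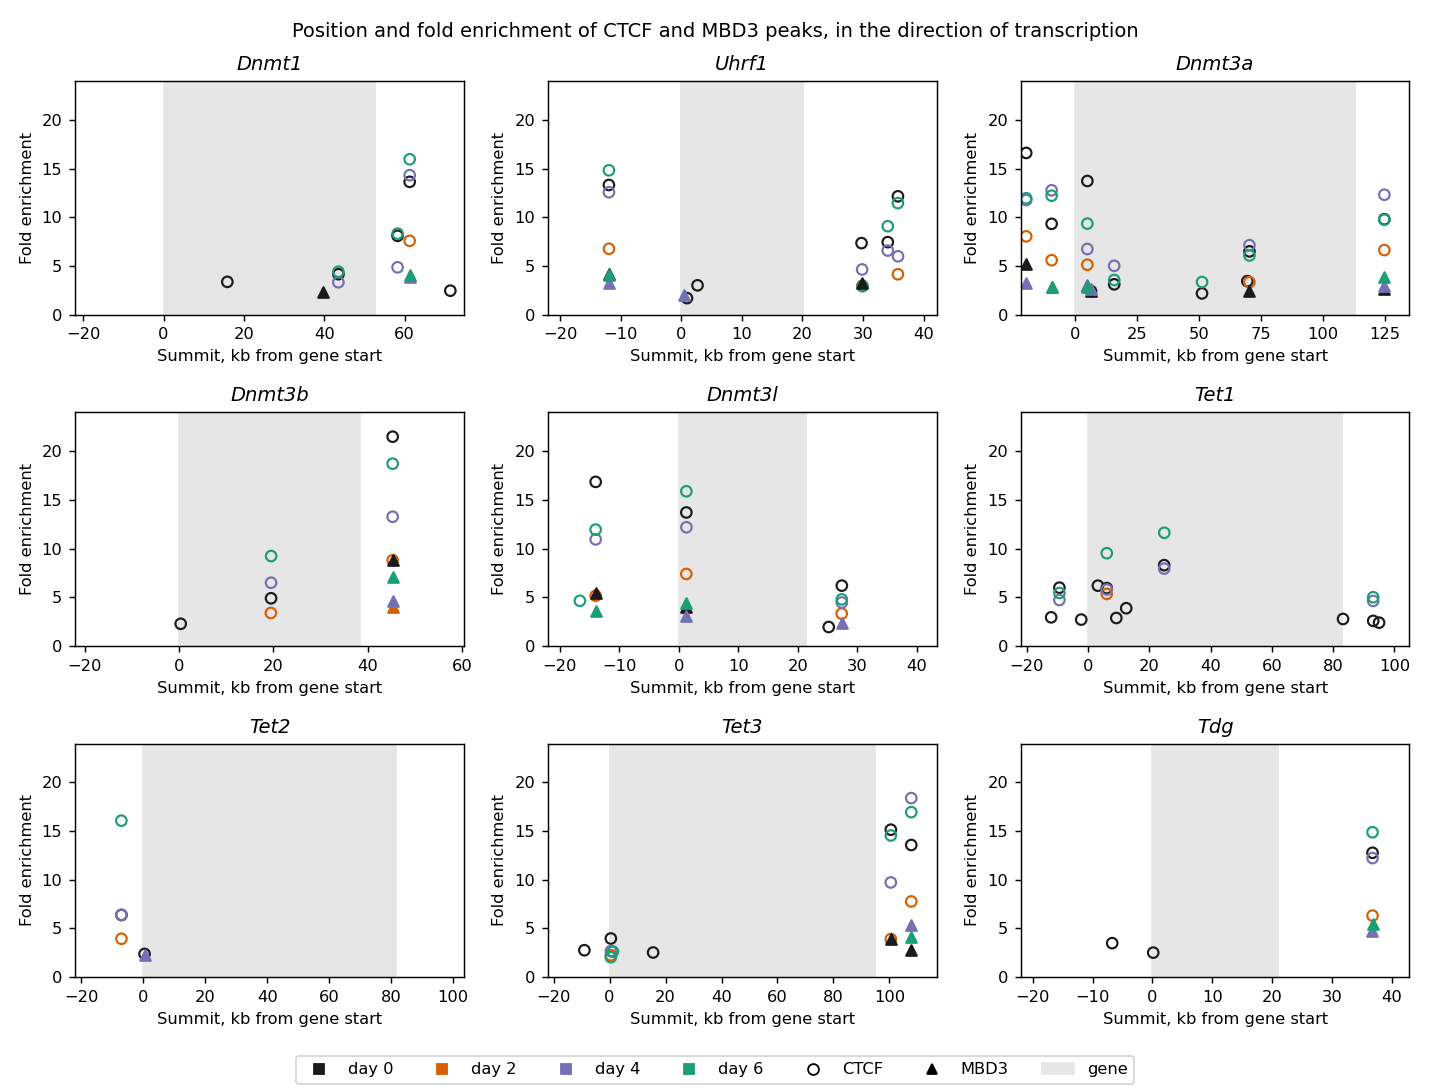
Each panel shows the summits of all peaks of 1 gene by their distance from the outer 5′ end in kb (horizontal axis, in the direction of transcription) and their fold enrichment (vertical axis). Open circles are CTCF, filled triangles MBD3, colours are days, and the grey band is the gene. The highest fold lay outside the gene at every gene but Tet1, and the Tet2 gene body holds no peak beyond its 5′ end. The windows add 20 kb on each side, and the share of all genes with their highest fold outside is not given here. The position is therefore not read as particular to these genes.

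The maintenance genes carried their strongest CTCF peaks outside the gene, as did all the other members but Tet1. Dnmt1 (chromosome 9, 20907206 to 20959888, minus strand) had a CTCF site 8.5 kb beyond its 3′ end, with no annotated gene under its summit, with folds of 13.6, 7.58, 14.3 and 16.0 on days 0, 2, 4 and 6. MBD3 had a peak at that site on days 4 and 6, with folds of 3.84 and 4.12, and none on days 0 and 2. A second downstream site, 5.5 kb from the gene, and a site inside the gene were called on days 0, 4 and 6 and not on day 2, with CTCF folds of 8.10, 4.86 and 8.32 and of 4.16, 3.33 and 4.41. Inside Dnmt1 a weak MBD3 peak of day 0 (fold 2.36) lay 3807 bp from the nearest CTCF summit. The remaining 2 sites of Dnmt1 were CTCF peaks of day 0 alone, with folds of 3.37 and 2.46. Its 3 promoter windows had no peak within 8 kb. Uhrf1 (chromosome 17, 56303337 to 56323486, plus strand) had a site 11.9 kb upstream, also outside any annotated gene, with CTCF folds of 13.3, 6.77, 12.6 and 14.8. MBD3 was called there on days 0, 4 and 6 with folds of 4.17, 3.22 and 4.09. The 3 sites beyond the 3′ end of Uhrf1 lay inside Kdm4b, a histone demethylase gene, and the farthest had CTCF folds of 12.2, 4.15, 5.99 and 11.5 without MBD3. The nearest of them had CTCF folds of 7.35, 2.97, 4.64 and 2.92 and an MBD3 peak on day 0 alone (fold 3.27). The middle one had CTCF folds of 7.45, 6.58 and 9.08 on days 0, 4 and 6 and no peak on day 2. Inside Uhrf1, besides the weak peaks near its start, a CTCF peak of fold 3.01 was called on day 0.

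Among the de novo genes, Dnmt3b had the one site of all 9 windows with both proteins on every day. MBD3 peaks on all 4 days were found in the windows of 7.57% of all genes, at the same site or not, and with or without CTCF. Of all MBD3 sites of the genome, 4.90% were found on all 4 days. The site with both proteins lay 6.9 kb beyond the 3′ end of Dnmt3b (chromosome 2, 153649411 to 153687730, plus strand). It spanned 153694480 to 153694974, with no annotated gene under its summit. Its CTCF folds were 21.5, 8.80, 13.3 and 18.7 on days 0, 2, 4 and 6, and the first was at the 98.4th percentile of the day 0 list. Its MBD3 folds were 8.81, 4.02, 4.59 and 7.06. The MBD3 fragments over the summit numbered 55 (95% interval 41.4 to 71.6), 43 (31.1 to 57.9), 54 (40.6 to 70.5) and 45 (32.8 to 60.2), and the local background was 5.36, 9.95, 10.98 and 5.52. The level of the MBD3 lists, 1.51, 2.18, 1.93 and 1.41, also differed, so fragments are not comparable between days. These exact Poisson intervals cover counting error only. The summits of the 4 MBD3 peaks lay within 14 bp of each other and 1 to 14 bp from the CTCF summit of the day. A site inside Dnmt3b, 19.5 kb from the start, carried CTCF alone with folds of 4.89, 3.38, 6.49 and 9.23.

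Dnmt3a, the longest gene of the group (chromosome 12, 3801559 to 3914443, plus strand), had the most peaks, with 27 of CTCF and 13 of MBD3 at 9 sites. CTCF was found on all 4 days at 5 of these sites, and MBD3 on days 0, 4 and 6 at 2 of them. The site just before the starts of its CpG-rich promoters had CTCF folds of 13.7, 5.13, 6.74 and 9.35, with MBD3 folds of 2.96, 3.06 and 2.82 on days 0, 4 and 6. The other site, 11.9 kb beyond the 3′ end, had CTCF folds of 9.80, 6.63, 12.3 and 9.75, with MBD3 folds of 2.65, 2.90 and 3.88 on those days. Upstream, a site inside the neighbouring Dtnb had CTCF folds of 16.6, 8.04, 11.8 and 12.0, and MBD3 on days 0 and 4 (5.16 and 3.22). Its peaks lay 19.6 to 19.75 kb from the gene, the farthest kept by the limit of 20 kb. The next peak beyond that limit at any of the 9 genes lay 22.8 kb from Dnmt3b, with a CTCF fold of 4.44. A site 9.6 kb upstream had CTCF folds of 9.33, 5.59, 12.8 and 12.2, on backgrounds 15.1 to 18.9 times the level of the lists, and MBD3 on days 4 and 6 (2.80 and 2.87). A weak CTCF peak of day 0 (2.41) lay 725 bp after a Dnmt3a start, and MBD3 was called at that site on days 0 and 4 (2.39 and 2.63). Farther inside the gene, a site of all 4 days had CTCF folds of 6.50, 3.33, 7.14 and 6.08 and MBD3 on day 0 (2.44). The remaining 3 sites inside Dnmt3a carried CTCF alone, with folds of 2.18 to 5.01, and none was called on day 2.

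Dnmt3l (chromosome 10, 78042287 to 78063622, plus strand) had CTCF and MBD3 at both a site near its start and a site upstream. The first, 1.3 kb inside the gene and also within the annotated Aire, an autoimmune regulator gene, had CTCF folds of 13.7, 7.39, 12.2 and 15.9. MBD3 folds there were 4.03, 3.12 and 4.39 on days 0, 4 and 6. The second, 14.0 kb upstream, had CTCF folds of 16.8, 5.15, 10.9 and 11.9 and MBD3 on days 0 and 6 (5.40 and 3.63). A site 6.1 kb downstream, inside Icosl, had CTCF folds of 6.19, 3.32, 4.46 and 4.78 and an MBD3 peak of fold 2.298 on day 4. The remaining 2 sites were single CTCF peaks of fold 1.94 on day 0 and 4.63 on day 6, the one site of the 49 that was called on day 6 alone.

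MBD3 was called near Tet2 and Tet3 and not near Tet1. Tet1 (chromosome 10, 62804570 to 62887469, minus strand) had 11 CTCF peaks on day 0 and 0 MBD3 peaks on any day. No MBD3 peak on any day was found at 42.2% of all genes, and CTCF on all 4 days without MBD3 on any day at 12.7%. Of the 11 CTCF sites of Tet1, 7 were found on day 0 alone. The one site of all 4 days, 6.1 kb inside the gene, had folds of 5.93, 5.34, 5.79 and 9.52, from 41, 33, 24 and 41 fragments over the summit. A site 24.9 kb inside the gene was the strongest, with 8.29, 7.94 and 11.6 on days 0, 4 and 6 and no peak on day 2. A site upstream and one downstream were also called on days 0, 4 and 6, with folds of 5.98, 4.71 and 5.43 and of 2.57, 4.62 and 4.99. The 7 peaks of day 0 alone had folds of 2.39 to 6.19. No CTCF peak of Tet1 reached the median fold of the CTCF peaks of the 9 genes that carried MBD3 on the same day, which was 13.6, 8.80, 12.3 and 14.9. The lowest CTCF folds with MBD3 were 2.41, 8.80, 4.46 and 9.35, the day 2 value being a single peak. On days 0, 4 and 6 Tet1 had CTCF peaks within the range of those with MBD3. The day 0 low of 2.41 was a weak peak of Dnmt3a, and why Tet1 had no MBD3 peak was not tested.

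Tet2 (chromosome 3, 133463677 to 133545136, minus strand) had 2 sites. The one 7.1 kb upstream carried CTCF alone, with folds of 6.38, 3.94, 6.39 and 16.1 on days 0, 2, 4 and 6. Its fragments over the summit numbered 52 (95% interval 38.8 to 68.2), 31 (21.1 to 44.0), 49 (36.3 to 64.8) and 61 (46.7 to 78.4), on local backgrounds of 7.30, 7.12, 6.82 and 2.86. The fold was highest on day 6, where the local background was lowest, and fragments of different days come from lists of different depth. The other had a CTCF peak on day 0 (2.38), 328 bp before the RefSeq start, and an MBD3 peak at the same place on day 4 (2.29).

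Tet3 (chromosome 6, 83362373 to 83457208, minus strand) had its strong sites beyond the 3′ end, inside the neighbouring Bola3. The farther one, 13.0 kb from Tet3, had CTCF folds of 13.6, 7.77, 18.4 and 16.9, and with 570, 365, 317 and 465 fragments over the summit it was the deepest site of the group on days 0, 2 and 6. MBD3 folds there were 2.83, 5.32 and 4.15 on days 0, 4 and 6. The nearer one, 5.6 kb from Tet3, had CTCF folds of 15.1, 3.91, 9.73 and 14.6 and MBD3 on day 0 alone (3.96). Single CTCF peaks of day 0 lay upstream of Tet3 (2.76) and at its RefSeq start (2.53). Tdg (chromosome 10, 82629814 to 82650799, plus strand) had 1 site of all 4 days, 15.8 kb beyond its 3′ end inside Glt8d2, with CTCF folds of 12.8, 6.32, 12.2 and 14.9. MBD3 was called there on days 4 and 6, with folds of 4.72 and 5.49, and not on days 0 and 2. The other Tdg sites were CTCF peaks of day 0 alone, with folds of 3.49 upstream and 2.51 near the start.

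**Figure D4:**
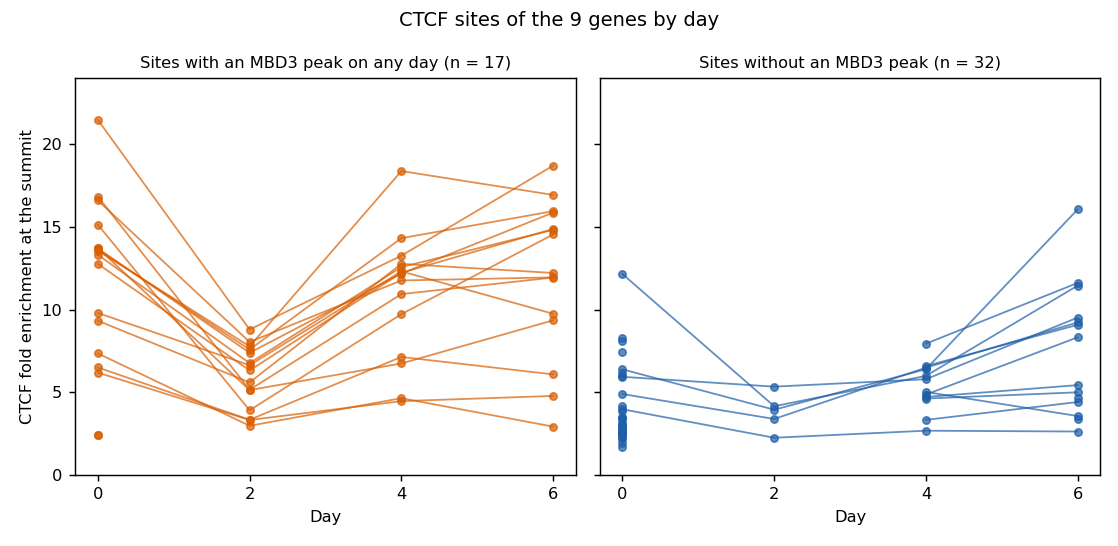
CTCF fold enrichment at the summit (vertical axis) by day (horizontal axis) for the 49 CTCF sites of the 9 genes, with 1 line per site, broken where no peak was called; orange sites (left, 17) had an MBD3 peak on some day and blue sites (right, 32) had none. On day 2 folds were between 2.24 and 8.80, and the points at day 0 without a line are mostly sites of that day alone.

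At the sites of all 4 days CTCF fold was lowest on day 2 at 19 of 20, taking the peak of highest -log10 q where a site had more than 1 on a day. The exception was the first of the 3 sites in Kdm4b, which was lowest on day 6. The site at the 5′ end of Tet3 counts as lowest on day 2 only through its further day 6 peak (2.62), since the day 6 peak at the place of the other days (2.04) lay below the day 2 value of 2.24. The median fold of the whole CTCF list was also lowest on day 2, at 5.46, against 6.67, 8.56 and 8.91 on days 0, 4 and 6. The highest fold fell on day 0 for 9 of the 20 sites, for 4 on day 4 and for 7 on day 6, so the sites had no common order of those days. The shares over all CTCF sites of 4 days in the genome are not given here, so these counts are not read as particular to the 9 genes.

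Most MBD3 peaks of these genes overlapped CTCF. Of the 38 MBD3 peaks, 34 overlapped a CTCF peak of the same day, namely 12 of 13, 1 of 1, 11 of 14 and 10 of 10 on days 0, 2, 4 and 6. Over the whole MBD3 lists these shares were 88.9%, 53.7%, 84.3% and 91.8%. Over all 38, the closest CTCF summit of the day was a median of 10.5 bp away. The 4 MBD3 peaks outside CTCF lay inside Dnmt1 and near starts of Uhrf1, Dnmt3a and Tet2, with folds of 2.01 to 2.63. The local background under the MBD3 peaks of the 9 genes had a median of 8.07, 4.57, 8.84 and 10.8 times the level of the list, against 4.52, 4.88, 4.88 and 4.64 times over the whole lists, and its part in these calls was not tested. Of the 20 CTCF sites of all 4 days, 15 had MBD3 on some day, against 55.1% of all such sites of the genome. Of the 29 CTCF sites of fewer days 2 had MBD3, against 6.07% over the genome. CTCF peaks with MBD3 had median folds of 13.6, 8.80, 12.3 and 14.9, against 3.41, 5.15, 5.89 and 5.75 for those without, and on day 2 a single peak had MBD3. The whole CTCF lists showed the same order, with medians of 12.7, 9.04, 13.3 and 14.4 with MBD3 and 5.75, 5.42, 7.52 and 7.31 without. The ranges overlapped: on day 0 the folds were 2.41 to 21.5 with MBD3 and 1.70 to 13.6 without, and on day 6 the upstream Tet2 site had 16.1 without MBD3. Of the 19 MBD3 sites, 1 was found on all 4 days (4.90% over the genome), and 6, that one included, on days 0, 4 and 6. The day 2 list had 1 MBD3 peak at the 9 genes, so no more than 1 site could be found on all 4 days. The difference from CTCF sites is therefore not read as a property of MBD3.

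For the other pathway genes, the counts that follow can be read against the shares of all genes, which for CTCF were 79.4%, 67.8%, 74.1% and 74.9% and for MBD3 42.2%, 10.6%, 39.2% and 43.5% on days 0, 2, 4 and 6. Of 8 readers of methylated CpG, which include Mbd1 and Mbd2, 8, 7, 8 and 8 had CTCF in their window on days 0, 2, 4 and 6, and 4, 1, 4 and 3 had MBD3. Of 8 genes of base excision repair, such as Apex1 and Parp1, 8, 7, 8 and 8 had CTCF and 3, 1, 2 and 1 had MBD3. Of 13 partners and regulators of the enzymes, such as Hells and Dppa3, 12, 11, 11 and 11 had CTCF and 8, 1, 6 and 7 had MBD3. Of 4 methyl donor genes, such as Mat2a, 4 had CTCF on every day and 0, 0, 1 and 1 had MBD3. For comparison, 13, 5, 11 and 11 of 15 NuRD subunit genes and 9, 4, 8 and 7 of 12 CTCF and cohesin genes had MBD3 in their window. Stag2 and Ctcf were the genes of these lists with both proteins within 1 kb of an end on all 4 days. The share of all genes that met this rule is not given here. The strongest MBD3 peak in the window was 8.30 at Stag2 and 4.74 at Ctcf on day 6, and at Dnmt3b, outside that limit, it was 7.06.

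The genes whose strongest CTCF and MBD3 peaks had the most similar folds over the 8 lists, by Euclidean distance of log2(1 + fold) with 0 for no peak, were spread over other chromosomes. They were picked by these same folds, so the likeness of the values below follows from the choice. Tet1 was closest to Rbm33 (distance 0.07), which had CTCF folds of 8.69, 5.32, 7.74 and 11.6 and also 0 MBD3 peaks. Dnmt3a was closest to Eepd1 (0.17), Tet3 to Zfp169 (0.18), Dnmt3l to Shoc2 (0.19), Uhrf1 to Chst12 (0.19) and Tdg to Trip10 (0.21). Dnmt3b was closest to Rac1 (0.42), which had MBD3 folds of 8.55, 3.40, 4.52 and 7.23 on days 0, 2, 4 and 6. Tet2 was closest to Tspyl1 (0.67), the greatest of the distances given here.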

How the data were processed

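Per the submitters' processing notes, the authors' tools include MACS2 2.1.2, with the build mm10; Bowtie2 2.3.4, FastQC 0.11.7, bedtools 2.25.0 and SAMtools 1.9 are also named. They deposited 1 peak list per antibody and day, whose names show 3 pooled replicates. Each list gives, as the authors' values, the fold enrichment (a ratio) at the summit and the -log10 p and -log10 q, with a lowest -log10 q of 1.30 to 1.31. Total fragments per sample are not given in the sources used here.

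Where the same interval was listed for more than 1 summit, the summit of highest -log10 q stood for the peak, on chromosomes 1 to 19, X and Y. Peaks overlapping by 1 bp or more were 1 site. Gene ends came from RefSeq (GRCm38.p6), in a table without exons. Whole fragments over each summit and the background were recovered from fold and p (match within 0.1%, found for all 163 peaks), and tested on simulated data. PCR copies are not told apart. The genome-wide level of a list is the smallest background that 0.5% or more of its peaks have in common. The members, gene lists and alternatives were chosen with earlier results of these data known. All 9 members are named; other lists are counted, with genes named when both proteins lay within 1 kb of an end on all 4 days, and for each member the most similar gene, which for Dnmt1 is not reported here. The alternatives tried were equal list lengths, a stricter -log10 q (10 or more), windows of 5 kb, separate summits, no peaks with a background over 10 times the level, and stricter overlap. Python 3.11.15, numpy 2.4.6, pandas 2.3.3, scipy 1.17.1, matplotlib 3.10.9 and bedtools 2.31.1 were used.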

Additional observations from a re-analysis of the deposited data

How the results depend on the processing

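Counts are within 1.5 times of those reported unless given here, with days in the order 0, 2, 4, 6. At a -log10 q of 10 or more, CTCF had 29 peaks on day 0, and MBD3 5 on day 0 (5 in CTCF) and 8 on day 4. With equal list lengths, CTCF had 23 peaks on day 0, and MBD3 had 4 on day 0 (4 in CTCF), 3 on day 4 (at 3 genes, 3 in CTCF) and 2 on day 6 (at 2 genes, 2 in CTCF). With windows of 5 kb, CTCF had 25, 6, 9 and 11 peaks, at 5 genes on day 2, and MBD3 had 5, 0, 5 and 2 peaks at 3, 0, 4 and 2 genes, of which 4, 0, 2 and 2 lay in CTCF peaks. That window left 6 CTCF sites and 0 MBD3 sites of all 4 days, so the strong sites lay mostly beyond it. Without peaks of high background, CTCF had 12 peaks on day 2 and 11 sites of all 4 days, and MBD3 had 4 peaks on day 6 (at 4 genes, 4 in CTCF). Separate summits and the stricter overlaps moved no count past 1.5 times. No paired analysis was possible because each list pools its 3 replicates, and for the same reason no replicate could be left out. MBD3 lists differ in length from 1991 to 10875 peaks, the part of depth in that was not tested, and a missing peak does not show that the protein was absent.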
